A study of Mus musculus with 7 samples.

Results

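The Clcn5 microRNAs measured here were mmu-miR-500, mmu-miR-501-3p, mmu-miR-532-3p, mmu-miR-532-5p, mmu-miR-362-3p, mmu-miR-362-5p and mmu-miR-188-5p, taken by these names on the array and written below without the species prefix. They made up 7 of the 611 mouse microRNAs on it. They were chosen by their host gene, with their detection and their scaled and unscaled levels in both genotypes already known from these arrays. The genotype differences given for them are therefore a description, with no test. The intervals printed beside these differences were not adjusted for that choice. None of these intervals is therefore a test of whether a member differed between genotypes. Each array held the RNA of 1 kidney from a male mouse aged 3.5 to 4 weeks. The 3 megabladder mice (mgb-/-, mice 2, 3 and 4) have kidneys that the labels call obstructed, and the 4 wild-type mice (mgb+/+, mice 1 to 4) have kidneys called normal. The megabladder line lacks normal bladder smooth muscle, so that urine backs up into the kidney. A megabladder mouse 1 was not analysed here, although the design speaks of 4 mutants. The kidneys were not dissected, so that fewer cells of a type and less RNA per cell cannot be told apart.

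Clcn5 encodes ClC-5, a chloride and proton exchanger in the endosomes of proximal tubule cells, where filtered proteins are taken up. Loss of the human gene causes Dent disease, with protein in the urine and kidney stones. Hairpins in an intron are cut out of the host transcript as it is made, and Dicer then releases a 5′ and a 3′ arm. An arm loaded into Argonaute pairs with messenger RNAs mainly through its seed, bases 2 to 8. The array measures no messenger RNA, so the level of the Clcn5 transcript itself was not measured.

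In the RefSeq annotation of GRCm38.p6 all 5 hairpins lie within Clcn5 on chromosome X, on the minus strand, as Clcn5 does, over 10815 bases. They are Mir532 (chrX:7248402-7248497), Mir188 (chrX:7247989-7248056), Mir362 (chrX:7241982-7242046), Mir501 (chrX:7241243-7241351) and Mir500 (chrX:7237683-7237774), in the order in which they are transcribed. Of 2 annotated starts of Clcn5, 1 lies upstream of the cluster and 1 downstream of it. Of the 10 arms of these hairpins, RefSeq lists 9 mature sequences, all but miR-532-5p. Those of the listed members and both arms of miR-500 are shown, because the members differ in which arm was seen and because some share a seed, which stands in capitals.
miR-500-3p: aAUGCACCugggcaaggguuca
miR-501-3p: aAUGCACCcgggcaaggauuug
miR-362-3p: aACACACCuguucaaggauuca
miR-532-3p: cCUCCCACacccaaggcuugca
miR-362-5p: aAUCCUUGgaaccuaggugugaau
miR-500-5p: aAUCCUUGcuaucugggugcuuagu
miR-188-5p: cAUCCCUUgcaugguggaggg
The pair miR-500-3p and miR-501-3p shares the seed AUGCACC and has 18 of 22 bases in common, with the substitutions U9C, G18A, C21U and A22G counted from the 5′ end of miR-500-3p. The pair miR-362-5p and miR-500-5p shares the seed AUCCUUG. The array's name miR-500 gives no arm, and the files hold no probe sequences. In older nomenclature that name stood for the 3′ arm. The hairpin of miR-362 is shown with both arms in capitals, since both were measured.
Mir362: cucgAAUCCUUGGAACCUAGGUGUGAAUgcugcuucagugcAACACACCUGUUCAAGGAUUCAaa

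Detection came first, because the members were dim. A probe was counted as above background on an array where at least 0.5 of its spots were well above background in the scanner software. Of the members' 22 probes, 5 were above background on all 7 arrays, 13 on none, and 2 on all 4 wild-type arrays and on no megabladder array. Both probes of miR-500, both of miR-362-3p and 1 of 2 of miR-532-5p made up the 5, so 3 of 7 members were seen in every kidney. Over the whole array 292 of 1857 probes were above background on all 7 arrays. Of the 611 mouse microRNAs 163 had such a probe. The 2 probes above background on all wild-type arrays and on no megabladder array were 1 of 4 for miR-362-5p and 1 of 4 for miR-532-3p. The share of all probes with this pattern was not counted, so 2 of 22 cannot be read as a trait of the members. The other probe of miR-532-5p was above background in wild-type mouse 3 alone. The member miR-188-5p was seen with 1 of 4 probes, in megabladder mouse 4 and in wild-type mice 3 and 4. miR-501-3p was above background on 0 of 7 arrays, as were the other arms of these hairpins on the array, miR-188-3p and miR-501-5p.

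**Figure D1:**
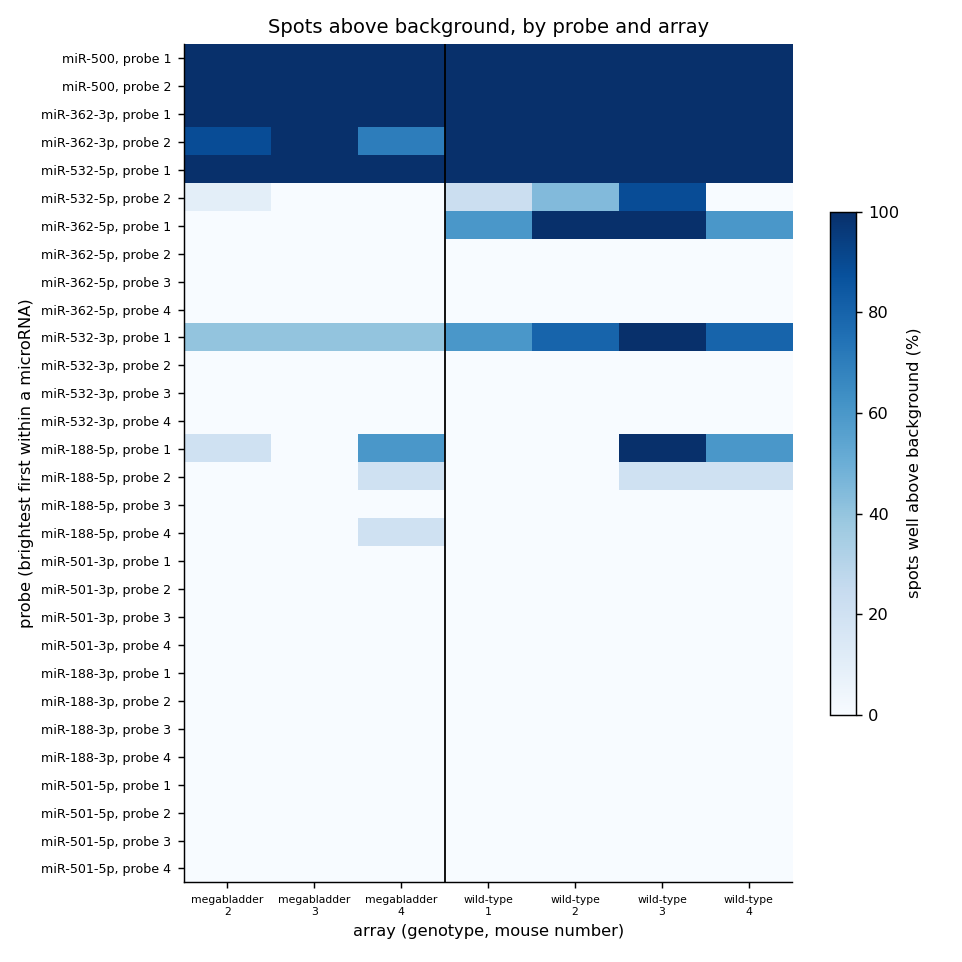
The share of spots well above background (%) is drawn for each probe (rows, brightest first within a microRNA) on each array (columns, 3 megabladder arrays and then 4 wild-type arrays). The upper rows, of miR-500, miR-362-3p and the brighter probe of miR-532-5p, are filled wholly or mostly on all 7 arrays. The brightest probe of miR-362-5p is filled, wholly or in part, on the 4 wild-type arrays alone. Its other probes and those of miR-501-3p are filled on none.

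Arrays also differed in how bright they were as a whole, and the part of this in the counts above was not tested. Megabladder arrays had 196 to 210 mouse microRNAs above background, and wild-type arrays 190 to 206. The 75th percentile of the probes detected on all arrays was 224 to 333 scanner units in megabladder arrays, against 348 to 496 units in wild-type arrays. The signals were therefore scaled by that percentile, and the log2 scaling factor was 0.61 lower in megabladder arrays. Scaled signals below 11.4 units were set to that floor. All arrays lay on 1 slide, wild-type in row 1 and megabladder in row 2, so row and genotype cannot be told apart. Of the kidney markers, miR-192, miR-194 and miR-204 were above background on all 7 arrays and miR-215 on none, while the neuronal miR-124 and miR-9 were above it on none.

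miR-500 was the brightest member and the one with the largest scaled difference. Its brighter probe read 70.6, 88.9 and 61.6 units in megabladder mice 2, 3 and 4, against 81.4, 98.9, 104 and 73.7 units in wild-type mice 1 to 4, before scaling. These groups overlapped. After scaling, the level of miR-500 over both probes was 5.97, 5.94 and 6.04 log2 units in megabladder kidneys, against 5.57, 5.72, 5.50 and 5.47 in wild-type kidneys. All scaled megabladder values lay above all wild-type values, as they did for 18.8% of all microRNAs. The means were 5.99 ± 0.05 in megabladder (SD, n = 3) and 5.56 ± 0.11 in wild-type kidneys (SD, n = 4), a difference of 0.42 (95% interval 0.20 to 0.64) or 1.34-fold. The scaled difference was 0.52 for the dimmer probe and 0.33 for the brighter. Unscaled, the log2 difference of miR-500 was -0.19 (interval -0.65 to 0.27).

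miR-532-5p, the 5′ arm of the first hairpin to be transcribed, was lower in every megabladder kidney before scaling and overlapped after it. Its brighter probe read 27.4, 30.2 and 22.5 units in megabladder mice 2, 3 and 4, against 34.3, 41.3, 45.5 and 32.0 units in wild-type mice 1 to 4. All unscaled megabladder values lay below all wild-type values, as they did for 39.9% of all microRNAs. After scaling the levels were 5.14, 4.97 and 5.12 log2 units in megabladder kidneys, against 4.92, 5.02, 4.99 and 4.99 in wild-type kidneys. These overlapped, with means of 5.08 ± 0.09 (SD, n = 3) and 4.98 ± 0.04 (SD, n = 4) and a difference of 0.10 (95% interval -0.11 to 0.30). The unscaled difference was -0.52 (interval -0.94 to -0.09).

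The 3′ arm of the same hairpin, miR-532-3p, rested on 1 probe. That probe read 9.74, 12.2 and 8.89 units in megabladder mice 2, 3 and 4, against 13.6, 15.1, 18.0 and 11.4 units in wild-type mice 1 to 4. In each megabladder kidney 2 of 5 spots were above background, against 3 to 5 of 5 in wild-type kidneys. Scaled levels were 3.70 ± 0.07 log2 units in megabladder (SD, n = 3) and 3.58 ± 0.06 in wild-type kidneys (SD, n = 4), with a difference of 0.12 (95% interval -0.08 to 0.32). The probe was thus above background in wild-type kidneys alone, while its scaled level was no lower in megabladder kidneys. No lower limit of a fold is given, because the wild-type mean did not exceed the lowest scaled signal measurable on megabladder arrays.

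miR-362 was measured by both arms. For miR-362-3p the brighter probe read 30.3, 44.2 and 23.1 units in megabladder mice 2, 3 and 4, against 38.6, 50.4, 58.8 and 41.3 units in wild-type mice 1 to 4. Megabladder mouse 3 lay within the wild-type range, and the other megabladder mice lay below it. Scaled levels over both probes were 4.73, 4.99 and 4.59 log2 units in megabladder kidneys, against 4.69, 4.82, 4.87 and 4.87 in wild-type kidneys. The difference was -0.04 (95% interval -0.32 to 0.24), with opposite signs for the probes, at 0.04 for the brighter and -0.13 for the dimmer. Unscaled it was -0.65 (interval -1.23 to -0.07). The spread of scaled levels was larger in megabladder (SD 0.20, n = 3) than in wild-type kidneys (SD 0.08, n = 4), and on this scale megabladder mouse 3 was the highest of the 7 kidneys. Unscaled, megabladder mouse 3 lay below wild-type mice 2 and 3.

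The other arm, miR-362-5p, was read by 1 probe above background, at 7.48, 10.2 and 8.16 units in megabladder mice 2, 3 and 4, against 13.9, 15.8, 15.5 and 10.5 units in wild-type mice 1 to 4. Every megabladder signal lay below every wild-type signal before the floor was set, at the nearest 10.2 against 10.5 units. The share of all probes apart in this way was not counted. Among unscaled levels with a floor, 39.9% of all microRNAs had every megabladder value below every wild-type value. In all, 0 of 15 spots were above background in megabladder kidneys and 16 of 20 in wild-type kidneys. After scaling, 4 of 7 values were at the floor, in 2 kidneys of each genotype, and the levels were 3.56 ± 0.09 log2 units in megabladder (SD, n = 3) and 3.57 ± 0.07 in wild-type kidneys (SD, n = 4). Here too no lower limit of a fold can be given after scaling. Both miR-362-5p and miR-532-3p entered the tested set through wild-type arrays alone.

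miR-188-5p was near the limit of the array. Its brightest probe read 8.66, 7.97 and 9.81 units in megabladder mice 2, 3 and 4, against 9.32, 8.92, 12.9 and 9.91 units in wild-type mice 1 to 4. The groups overlapped, and 6 of 7 scaled values were at the floor, the exception being megabladder mouse 4. miR-501-3p, which shares its seed with miR-500-3p, had probe signals of -3.79 to 2.22 units over all 7 arrays, none above background. The probes of miR-500 on the same arrays read 26.8 to 104 units.

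**Figure D2:**
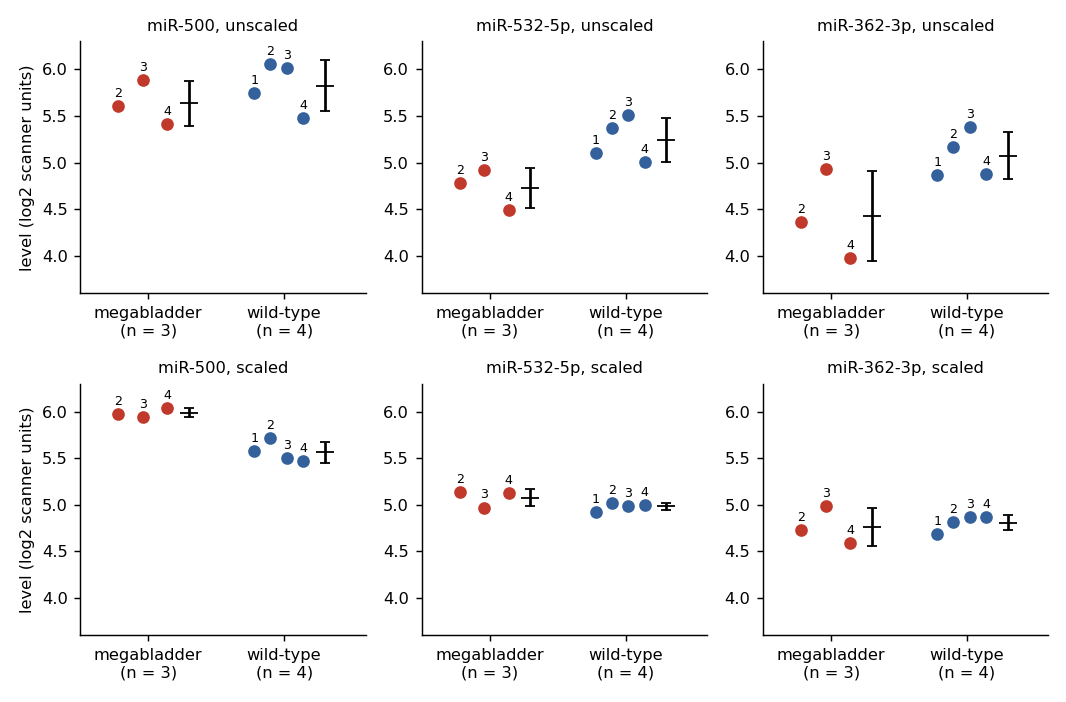
Levels (log2 scanner units) of miR-500, miR-532-5p and miR-362-3p are drawn before scaling (upper row) and after it (lower row), with 1 numbered point per mouse, megabladder left and wild-type right, and bars for the mean ± SD. Only miR-500 has all scaled megabladder values above all wild-type values, while unscaled miR-532-5p has all megabladder values below.

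Ratios between members on the same array do not depend on a scaling factor. The log2 ratio of miR-500 to miR-532-5p was 0.83, 0.97 and 0.92 in megabladder mice 2, 3 and 4, against 0.65, 0.69, 0.51 and 0.47 in wild-type mice 1 to 4. The ratio of miR-500 to miR-362-3p was 1.25, 0.96 and 1.43 in megabladder kidneys, against 0.89, 0.90, 0.63 and 0.60 in wild-type kidneys. In neither did the genotypes overlap. The mean ratios differed by 0.33 and 0.46. Taken probe by probe, the groups did not overlap in 2 of 2 pairs against miR-532-5p and in 2 of 4 against miR-362-3p. Among all 212 other tested microRNAs, 18.9% had a ratio to miR-532-5p with every megabladder value above every wild-type value, and 11.8% had such a ratio to miR-362-3p. All megabladder values lay below all wild-type values in 9.43% of ratios to miR-532-5p and 0.472% of ratios to miR-362-3p. The ratio of miR-532-5p to miR-362-3p overlapped, at 0.41, -0.02 and 0.51 in megabladder kidneys, against 0.24, 0.20, 0.12 and 0.13 in wild-type kidneys.

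**Figure D3:**
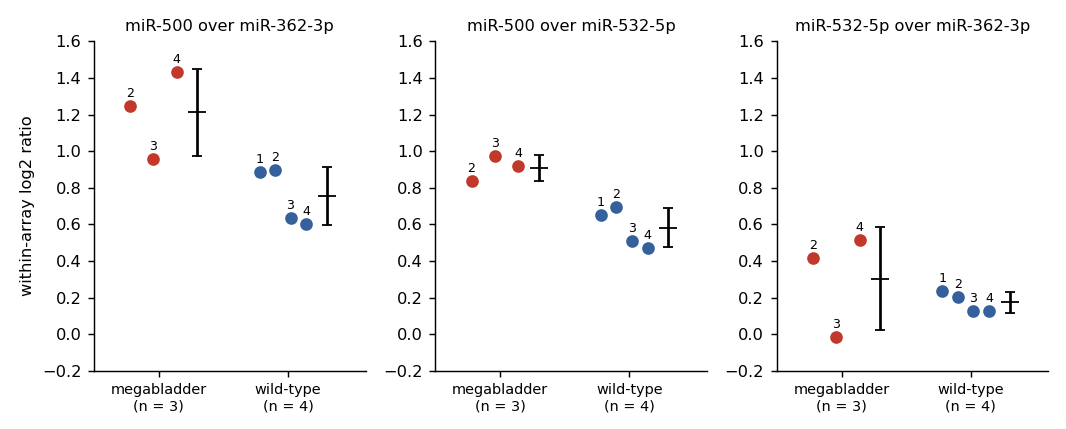
Within-array log2 ratios between the 3 members seen on all arrays are drawn with 1 numbered point per mouse, megabladder left and wild-type right, and bars for the mean ± SD. Both ratios with miR-500 on top are higher in every megabladder mouse than in any wild-type mouse, and the ratio of miR-532-5p to miR-362-3p overlaps.

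Limma's fit over all 213 microRNAs that passed the filter gives the setting for these values. Of the 6 members in it, 0 had a Benjamini-Hochberg adjusted p under 0.05, beside 3.29% of all microRNAs (2.82% higher and 0.469% lower in megabladder). The members were chosen with these levels known, so the count is given as a description. Over all microRNAs, 49 of 213 had an unadjusted p under 0.05. In 1 of 6 members, miR-500, all scaled megabladder values lay above all wild-type values, beside 18.8% of all microRNAs, and in 0 of 6 all lay below, beside 3.29%. The median log2 difference was 0.11 over the 6 members and 0.09 over all 213. Limma with a trend called 0 members and 13 microRNAs.

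**Figure D4:**
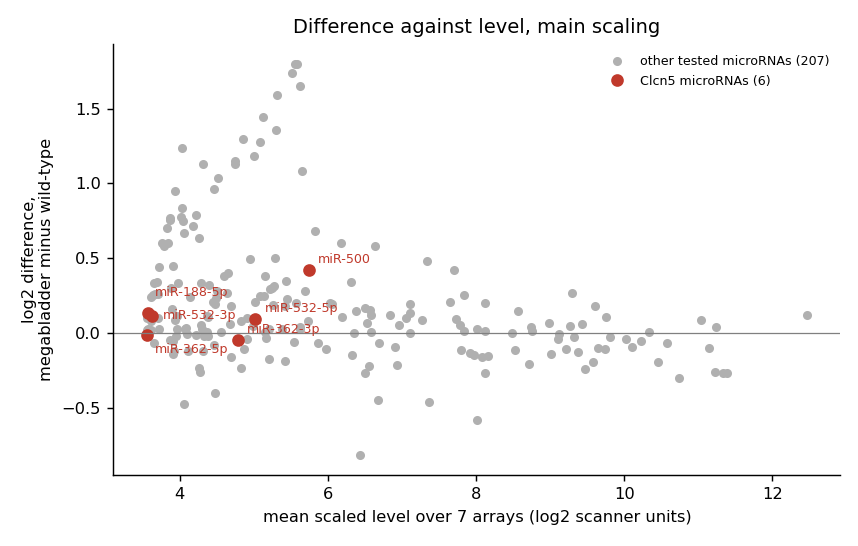
The log2 difference (megabladder minus wild-type, main scaling) is drawn against the mean scaled level (log2 scanner units) for the 6 tested Clcn5 microRNAs (red) and the other 207 tested microRNAs (grey). The members lie in the dimmer part of the range, with miR-500 at 0.42 and the others between -0.04 and 0.14.

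The members were dim, and the median difference of all microRNAs varied with level. When the 213 microRNAs were cut into 3 equal parts by mean level, 3 members fell in the dimmest part, 3 in the middle part and 0 in the brightest. The median log2 difference of all microRNAs was 0.12 in the dimmest part, 0.20 in the middle and -0.00335 in the brightest. The part of level in the difference of miR-500 was not tested.

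The sign of most members depended on the scaling. Unscaled, all 6 had negative differences with a median of -0.36, beside -0.50 over all microRNAs. Unscaled signals were set to a floor of 10.8 units, at which all megabladder values and 1 wild-type value of miR-362-5p lay. In 1 of the 6, miR-532-5p, every unscaled megabladder level lay below every wild-type value, beside 39.9% of all microRNAs, and in 0 of 6 every value lay above, beside 2.35%. Limma called 0 members unscaled, beside 32.4% of all (31.9% lower and 0.469% higher), while 105 of 213 microRNAs had an unadjusted p under 0.05. Over the 6 scalings in the plot of scalings, miR-500 ran from -0.32 to 0.42, miR-532-5p from -0.64 to 0.10 and miR-362-3p from -0.78 to -0.04. The lowest of each came with scaling over all probes. The percentile used there, 4.36 to 8.37 units, lay under the lowest above-background signal of each array, so it rests on undetected probes. Relative to the median of all microRNAs under the same scaling, miR-500 was 0.22 to 0.34 higher by all 6, and miR-362-3p was 0.13 to 0.37 lower. With normexp background correction miR-500 was at 0.47 and miR-362-3p at 0.43, beside a median of 0.42. From the authors' deposited table the difference of miR-500 was 0.03 and that of miR-362-3p -0.31, beside a median of -0.04. Scalings with 1 factor per array, all but quantiles, give such relative values alike by construction, apart from the floor. All megabladder values of miR-500 lay above all wild-type values under 3 of 6 scalings, the others being the median, beside 14.6% of all microRNAs, and the 25th percentile, beside 13.6%. With quantiles, miR-362-5p and miR-532-3p lay lower in every megabladder kidney than in any wild-type kidney, beside 19.2% of all microRNAs. With scaling over all probes miR-362-5p and miR-532-5p did, beside 48.4%. Under both of these scalings all megabladder values of miR-362-5p lay at the floor. With quantiles the values of miR-532-3p in megabladder mice 2 and 4 did too. Both miR-362-5p and miR-532-3p had entered the tested set through wild-type arrays alone, so the filter and the floor bear on their separation.

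**Figure D5:**
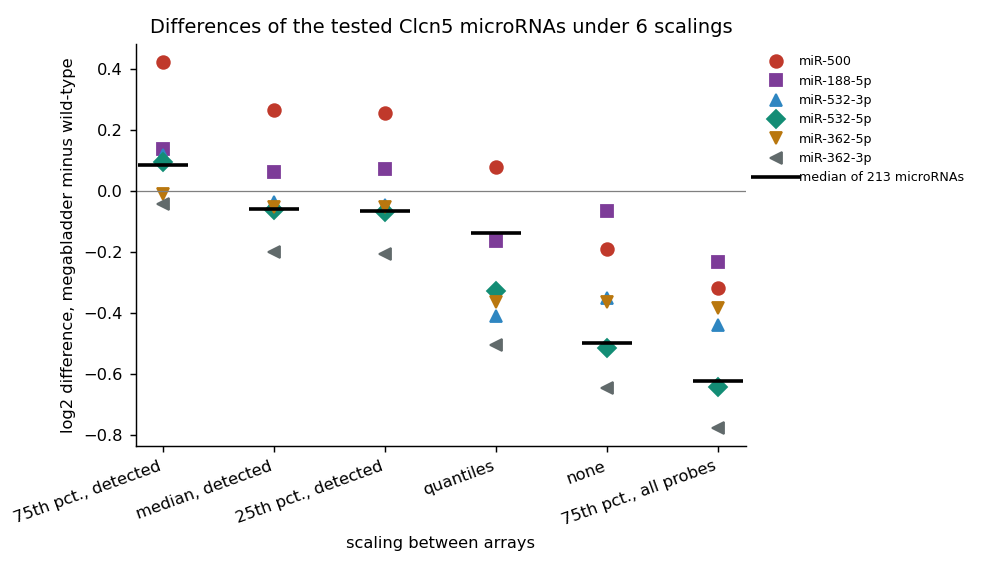
The log2 difference (megabladder minus wild-type) of each of the 6 tested Clcn5 microRNAs is drawn under 6 ways of scaling arrays, with black bars for the median of all 213 tested microRNAs. miR-500 lies above that bar under each scaling, miR-362-3p lies below it under each, and all 6 members are below 0 where arrays were not scaled or were scaled over all probes.

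In the authors' deposited table, which comes from the same arrays with a scaling that is not stated, miR-500 had 97, 94 and 99 units in megabladder mice 2, 3 and 4, against 86, 91, 101 and 101 units in wild-type mice 1 to 4. These groups overlapped. miR-362-3p stood in the authors' deposited table at 53, 58 and 46 units in megabladder kidneys, against 55, 58, 71 and 76 units in wild-type kidneys. miR-532-5p had 43, 40 and 37 units in megabladder kidneys in the authors' deposited table, against 45, 48, 53 and 51 units in wild-type kidneys. All 3 megabladder values were below the wild-type values, beside 12.1% of the 198 microRNAs compared in the authors' deposited table. miR-501-3p was at the lowest value of the authors' deposited table, 20 units, on all arrays.

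How alike the members' profiles were over the 7 arrays differed from pair to pair. Profiles were set against each other by the root mean square difference of scaled levels centred on their mean. The arms of miR-532 were 0.07 log2 units apart, so that miR-532-5p stood 3rd nearest to miR-532-3p among 212 other microRNAs. Seen from miR-532-5p, miR-532-3p stood 7th. The arms of miR-362 were 0.17 apart, and miR-362-3p stood 85th from miR-362-5p. Seen from miR-362-3p, miR-362-5p stood 40th. The profile of miR-500 was 0.18 from that of miR-532-5p (33rd of 212) and 0.29 from that of miR-362-3p (121st). Values at the floor flatten a profile, which bears on miR-362-5p (4 of 7 arrays), miR-188-5p (6 of 7) and miR-532-3p (1 of 7). The distances between the arms of miR-362 and between the arms of miR-532 thus rest in part on the floor. The 5 microRNAs outside the cluster nearest to the members' mean profile were miR-331-3p (0.05), miR-497 (0.06), miR-24 (0.06), miR-361 (0.08) and miR-30b* (0.08, with 5 of 7 arrays at the floor), against a median of 0.21 over 207 microRNAs. miR-331-3p had 5.78, 5.79 and 5.78 log2 units in megabladder kidneys, against 5.75, 5.74, 5.65 and 5.66 in wild-type kidneys.

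Other microRNAs of the proximal tubule and of chromosome X were set beside the members. Of 4 proximal tubule microRNAs 3 were tested, and 0 rose and 0 fell in limma's fit over all scaled microRNAs. Unscaled, limma called 2 of the 3 lower (miR-192 at -0.71 and miR-194 at -0.61), beside 31.9% of all microRNAs. miR-192, a microRNA of tubule cells, had -0.09 (95% interval -0.58 to 0.39), miR-194 from the same precursor transcripts 0.00 (interval -0.51 to 0.51) and miR-204 0.50 (interval -0.20 to 1.21). Both miR-192 and miR-194 were lowest in megabladder mouse 3, at 9.50 and 7.92 log2 units, against 10.1 to 10.2 and 8.40 to 8.55 in wild-type kidneys. Megabladder mouse 3 was thus low for miR-192 and miR-194 and high for miR-362-3p. For miR-204, the other tested tubule microRNA, it was the highest kidney, at 5.79 log2 units, against 4.58 to 5.64 in wild-type kidneys. Of 10 other X-linked microRNAs 6 were tested and 0 passed, with values from -0.22 for miR-98 to 0.35 for miR-652 and a median of 0.09. Unscaled, 3 of the 6 were called lower. Among the lists of other cell types, 0 of 1 tested urothelial, 2 smooth muscle, 3 leukocyte, 2 endothelial and 3 erythroid microRNAs passed, while unscaled all 3 leukocyte and both endothelial microRNAs were called lower. The median differences were 0.16 for smooth muscle, -0.15 for leukocyte, -0.15 for endothelial and 0.11 for erythroid microRNAs. The urothelial miR-205 was at 5.61, 4.41 and 4.21 log2 units in megabladder kidneys and at the floor in all wild-type kidneys. It was nevertheless above background on 1 wild-type array, as on all 3 megabladder arrays. The part of urothelial cells in the members' values was not tested.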

How the data were processed

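Total RNA (100 ng) from each frozen kidney was labelled with Cy3 and hybridised to 1 Agilent array, per the labels' protocols. Spot intensity values were deposited by the authors as Agilent Feature Extraction 10.7.3.1 output, background-subtracted and not scaled between arrays, per the file headers. Flag columns of the same software, per the file headers, marked outlier spots and spots well above background. The authors' deposited value table holds intensity values with a scaling not given in the sources used here. Of 650 names in it, 611 were compared with total gene signals from the same arrays. For this, each array's signals were first replaced, rank by rank, with the deposited values. The match is therefore one of rank order, not of the signals themselves. Of the 611, 584 matched in this way within 1 log2 unit on all arrays, 7 members among them. The match says little for names at the lowest deposited value, such as miR-501-3p. The table served as an alternative.

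Outlier spots (3.45% to 3.77% per array) and control spots were dropped. Saturated spots numbered 0. Spots of a probe were averaged and scaled by the 75th percentile over 292 probes detected on all arrays, since under 22% of probes were detected on any array. The floor of 11.4 units is where the 1st percentile of above-background probes lay on the middle array. A level is the mean log2 value of a microRNA's probes above background on at least 3 arrays. Precision is limited by how many arrays there are. The genotype test was limma's (lmFit, then eBayes, version 3.58.1 under R 4.3.3), 2-sided, with Benjamini-Hochberg adjustment over 213 microRNAs, and the fit was tested on simulated data. Differences are megabladder minus wild-type.

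Earlier results of these data were known when the members, the lists, the alternatives and the naming rule were chosen. That rule named all 7 members, other arms of their hairpins, the 5 nearest profiles, and proximal tubule, X-linked and other cell type microRNAs, whose lists also held miR-122 and miR-375 of liver and pancreas. Those were above background on 1 array each. Alternatives changed the scaling, the detection filter, the floor, the choice of probes and signal, the background correction and the test, added a block, or left out arrays. Normexp (offset 50) used median spot signals. Mouse numbers 2 to 4 occur in both genotypes and also name the slide column. The sequences are RefSeq's, of GRCm38.p6, while the file headers name mm9, and the array files hold no coordinates. Drawing used matplotlib 3.10.9.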

Additional observations from a re-analysis of the deposited data

Results flagged for a closer look

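Among 43 sets of 4 wild-type values checked for an array far from the others, 2 stood apart, where chance gives about 1 in 20. Wild-type mouse 4 had 190 mouse microRNAs above background, against 204 to 206 in the other wild-type mice. The unscaled level of miR-188-5p was 3.68 log2 units in wild-type mouse 3, while the other wild-type values were at the floor of 3.43. Values set to the floor are equal by construction, so this flag rests on the floor. Its brightest probe read 12.9 units in wild-type mouse 3 and 8.92 to 9.91 units in the other wild-type mice.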

How the results depend on the processing

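The count of 7 microRNAs called among 213 was 0 with scaling by all probes, quantiles, total gene signal, normexp, no filter (611 tested) or a floor of 1 unit, where limma's unadjusted p was under 0.05 for 107, 45, 24, 53, 40 and 30. It was 2 with scaling by the median and by the 25th percentile (the 25th was chosen after seeing the data), 69 unscaled, 1 with the authors' deposited values (198 tested), 4 with detection on all arrays (163 tested), 1 with all probes of a microRNA, 13 with limma's trend, and 1 without wild-type mice 3 and 4 together, also chosen after seeing the data. Leaving out 1 array gave 0 to 19, with 19 without megabladder mouse 3, 0 without megabladder mouse 2 or wild-type mouse 1, 2 or 3, and 1 without wild-type mouse 4. The count of members called was 0 under all alternatives except without megabladder mouse 3 (1, miR-500 at 0.44, beside 19 of all, given as a description), a range of 0 to 1.

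The members' median of 0.11 became -0.41 with scaling by all probes, -0.0446 by the median, -0.0489 by the 25th percentile, -0.35 with quantiles, -0.36 unscaled, -0.15 with the authors' deposited values, 0.0572 with total gene signal, 0.50 with normexp and 0.0321 with all probes, and ran from 0.0604 to 0.143 with 1 array left out. Normexp moved the median of all microRNAs to 0.42 and raised miR-362-3p to 0.43, while miR-500 was at 0.47 and miR-192 at -0.17. Over 23 alternatives miR-500 was positive in 21 and miR-362-3p negative in 19. These counts are not of independent settings. Other filters, a floor of 1 unit, all probes of a microRNA and limma's trend left the values at 0.42 and -0.04. Leaving out arrays kept the main scaling. miR-500 was negative unscaled (-0.19) and with scaling by all probes (-0.32). Unscaled, miR-194 (-0.61) and miR-223 (-0.57) turned negative and were called. With the mouse number as a replicate block over mice 2 to 4, 28 microRNAs and 0 members were called, and miR-500 had 0.43. Deviations of same-numbered mice correlated at -0.21, 0.01 and 0.21, and those of mice with different numbers at -0.29 to 0.32. With so few arrays this cannot tell whether the numbers pair the mice. The causes of these shifts were not tested. Dim signal limited 4 of 7 members, which were not above background on every array.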
